A study of Mus musculus with 12 samples.

Results

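The genes described here are those of the extracellular matrix and of its main receptors: collagens, laminins, integrins, thrombospondins, fibronectin, the nidogens, perlecan, agrin, Sparc and spondin 1. They were chosen by symbol alone, as every collagen, laminin, integrin or thrombospondin symbol in the count table plus Fn1, Nid1, Nid2, Sparc, Spon1, Hspg2 and Agrn, which gave 97 of 22462 genes. The set holds 44 collagen chains, 11 laminin chains, 27 integrin subunits and 15 other genes, 4 of which (Itgb1bp1, Itgb1bp2, Itgb3bp and Itgbl1) match the integrin pattern without being integrin subunits. The study compared 2 states of a mouse V6.5-derived line, embryonic stem cells (ESCs) and the epiblast-like cells made from them (EpiLCs), by sequencing ribosome protected footprints (RPFs) and total RNA, with 3 libraries in each of the 4 groups. ESCs were kept in Knockout DMEM with 15% serum, LIF and the inhibitors PD0325901 and CHIR99021 (2i), which hold them in the naive state. EpiLCs, a model of the early post-implantation epiblast, were harvested about 56 h after LIF and 2i were taken away from the same kind of cells. The sources name no genotype or added agent other than LIF and 2i that separated the groups, and do not give the EpiLC medium. For the differentiation the paper lists a line that carries fluorescent microRNA reporters. The paper calls the replicates biological and does not say whether libraries of one group came from separate cultures. The p-values therefore measure the spread between these libraries, which may not be that between cultures.

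Matrix proteins are made in the secretory pathway and assemble outside the cell. Laminins are trimers of 1 alpha, 1 beta and 1 gamma chain that polymerise on the cell surface, collagen IV forms a second network, and the nidogens and the heparan sulfate proteoglycans perlecan (Hspg2) and agrin link both into a basement membrane. Integrins, dimers of 1 alpha and 1 beta subunit, anchor cells to laminin, fibronectin or collagen. In the early embryo the epiblast rests on such a basement membrane, which is known for its part in shaping the epithelium.

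Library totals ran from 2681439 counts in an EpiLC RPF library to 14655015 counts in an EpiLC total RNA library, and the members took 0.867% to 1.49% of the counts. Levels are given as CPM, counts relative to the library total scaled by the trimmed mean of M values, and levels of different genes are compared as CPM per kilobase (kb) of counted coding sequence. Of the 97 members, 57 reached 3 CPM in at least 3 libraries and were tested together with all other such genes, 11750 in total, by voom and limma. For this filter CPM were taken over the library total without that scaling, so they differ slightly from the CPM printed below. A call needs a Benjamini-Hochberg adjusted p below 0.05 and a log2 fold change beyond 1 in either direction. Of the tested members, 9 reached 3 CPM in EpiLC libraries alone and 6 in ESC libraries alone, so that passing the filter already fixed the direction of these 15. The first were Col4a5, Col5a2, Col6a2, Col8a2, Col16a1, Col22a1, Itgb8, Spon1 and Thbs4 and the second Col17a1, Col26a1, Itga10, Itgae, Itgal and Itgb3, and the direction of their changes is a description. The other 42 reached it in at least 1 library of each cell type. Col1a1 did so in ESCs only in RPF replicate 2, and Col27a1 only in total RNA replicate 2. Col13a1 and Itgb7 did so in EpiLCs only in RPF replicate 1, and Itga7 only in total RNA replicate 1. The direction of change of these genes is likewise a description.

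Matrix genes moved in both directions between ESCs and EpiLCs, in total RNA and in RPF. In total RNA 22 members rose and 19 fell, where 14.6% of all tested genes rose and 9.70% fell. In RPF 23 rose and 18 fell, against 15.4% and 10.6% of all tested genes. Calls in total RNA and RPF pointed the same way for 40 members and opposite ways for 0. Of all 11750 tested genes, 2515 were called the same way and also 0 opposite ways. Sparc was called in total RNA alone and Col7a1 in RPF alone. Without the 15 members that one cell type carried through the filter, 13 rose and 13 fell in total RNA and 14 rose and 12 fell in RPF. Among these, 7 collagens rose and 2 fell of 13 in total RNA, 2 laminins rose and 4 fell of the 8 described, and 2 integrins rose and 2 fell of 10. Their median log2 change in total RNA was 1.12 for the collagens, -0.63 for the laminins and -0.23 for the integrins, while it was 0.03 over all tested genes. These counts and medians keep Col1a1, Col27a1, Col13a1, Itgb7 and Itga7, for which the filter also leaned on a single cell type. With the 15 included, 13 collagens rose and 4 fell of 21, and 3 integrins rose and 6 fell of 15. Over all tested genes, 36.9% had every EpiLC library above every ESC library in total RNA and 33.4% every one below, and 32.2% and 30.9% did so in RPF. Of the tested members 26 lay above and 24 below in total RNA, and 23 and 24 in RPF. The bulk libraries cannot tell fewer cells expressing a gene from less RNA of it per cell.

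**Figure D1:**
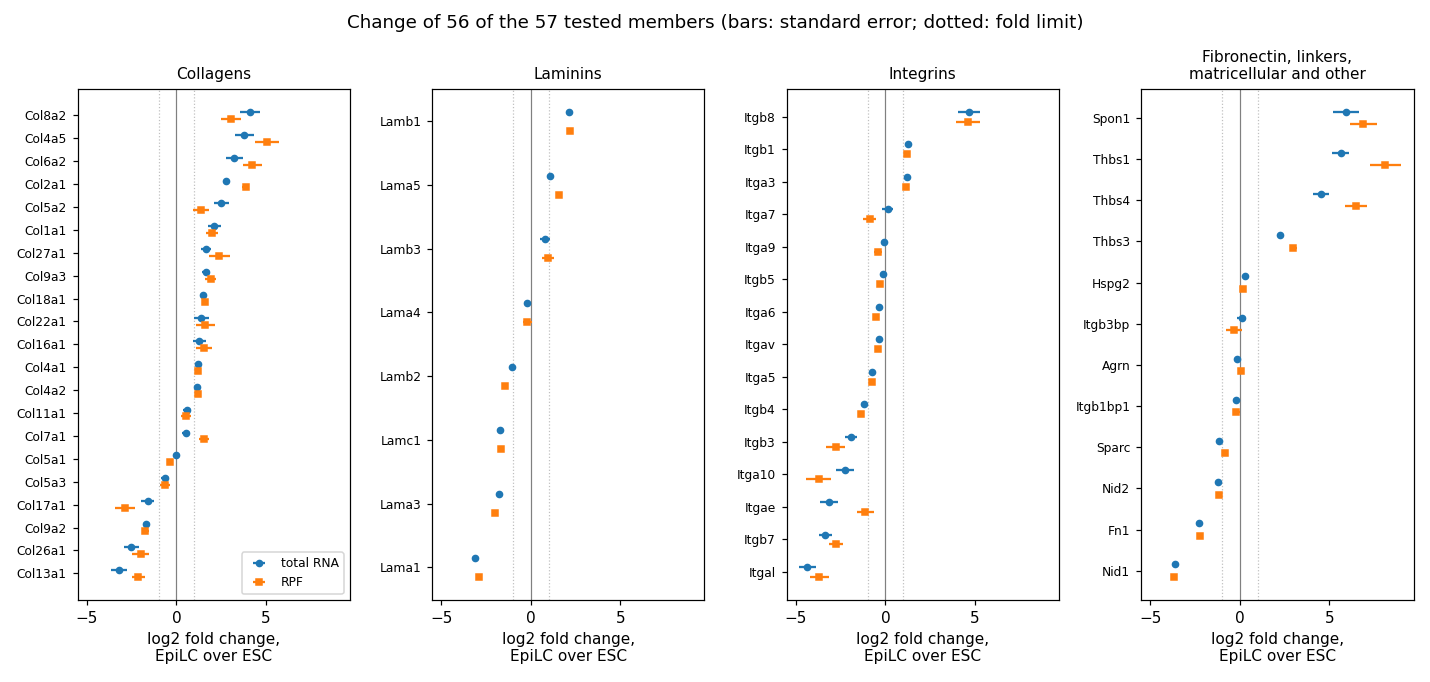
Log2 fold change of 56 of the 57 tested members from ESC to EpiLC, by family (rows are genes, points are the fitted changes in total RNA and RPF, bars are standard errors, dotted lines mark a log2 change of 1). Lamb1, Itgb1 and most collagens lie to the right, while Fn1, Nid1, Lama1 and Lamc1 lie to the left in both assays.

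The labelled cell states were checked on marker lists. All 5 naive markers fell in both assays, all 4 markers of the formative or primed epiblast rose, and of the shared pluripotency genes Sox2 and Nanog fell while Pou5f1 was not called. Primitive, visceral and parietal endoderm is a cell type known for laminin, collagen IV and Sparc, and 3 of its 9 markers were tested. Dab2 rose by 2.80 ± 0.30 (SE) on the log2 scale in total RNA, while Gata4 and Pdgfra were not called. The other 6 endoderm markers, among them Sox17, Gata6 and Foxa2, stayed below 3 CPM, Afp had 0 counts in every library and Ttr had counts in 1 library. The 9 endoderm markers summed to 5.32 to 6.996 CPM in ESC total RNA, 15.1 to 22.3 CPM in EpiLC total RNA, 10.4 to 11.6 CPM in ESC RPF and 30.96 to 32.8 CPM in EpiLC RPF. Of 8 fibroblast markers 4 were tested, of which Thy1, Dcn and Twist1 rose and Pdgfrb fell, Postn had 0 counts in every library, and their sum was 9.602 to 12.6 CPM in ESC and 12.3 to 15.5 CPM in EpiLC total RNA (16.2 to 20.6 and 26.8 to 41.9 CPM in RPF). Mesoderm markers (5 genes) summed to 5.92 to 7.73 and 4.47 to 7.95 CPM in ESC and EpiLC total RNA and 12.9 to 19.2 and 8.07 to 10.6 CPM in RPF, and Eomes, the 1 of them tested, fell. Trophoblast markers (4 genes) summed to 0.927 to 1.8 and 2.08 to 3.47 CPM in total RNA and 3.59 to 4.77 and 6.005 to 13.3 CPM in RPF, with Elf5 at 0 in every library and no call. The neural markers summed to 9.36 to 14.1 and 19.1 to 21.7 CPM in total RNA and 10.5 to 14.04 and 20.5 to 28.5 CPM in RPF, where Pax6 rose and Sox1 was not called. What part these cells had in the matrix results was not tested. Replicate 2 of ESC total RNA stood apart from the other ESC total RNA libraries for several genes that are high in EpiLCs, including Fgf5 with 0.0729, 2.11 and 0.257 CPM in replicates 1, 2 and 3, and total RNA changes of the genes named with values that moved by over 0.5 on the log2 scale without it are given below with and without it.

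Fibronectin (Fn1, counted at chr1:71586212-71652937 in mm10) was among the most abundant members in ESCs and fell in EpiLCs. It had 2473, 2258 and 2413 CPM in the 3 ESC total RNA libraries and 520.2, 437 and 495 CPM in the EpiLC ones. In RPF the values were 3781, 3503 and 3714 CPM in ESC and 821, 784 and 741 CPM in EpiLC. The groups were far apart in both assays. The log2 fold change was -2.29 ± 0.06 (SE) in total RNA and -2.24 ± 0.06 (SE) in RPF, with limma adjusted p-values of 2.61e-20 and 3.12e-19, or 4.89-fold and 4.71-fold lower levels.

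The nidogens, which bridge laminin and collagen IV, fell as well, and the pair did so to unequal extents. Nid1 (chr13:13437747-13510067) had 466, 385 and 473 CPM in ESC and 43.5, 33.3 and 28.8 CPM in EpiLC total RNA, and 744, 687 and 771 CPM in ESC and 73.6, 65.03 and 40.9 CPM in EpiLC RPF. Its log2 changes were -3.61 ± 0.14 (SE, adjusted p = 5.65e-17) and -3.70 ± 0.15 (SE, adjusted p = 4.36e-16), a fall of 12.2-fold and 13.02-fold. Nid2 (chr14:19751383-19811196) went from 717, 661 and 717 CPM to 330.5, 277 and 292 CPM in total RNA and from 1114, 1079.8 and 1195 CPM to 546, 518 and 467 CPM in RPF, which is a log2 change of -1.21 ± 0.07 (SE, adjusted p = 2.9e-14) and -1.16 ± 0.07 (SE, adjusted p = 2.32e-13). All EpiLC libraries lay below all ESC libraries for both genes. Per kb, Nid1 RPF went from 199 ± 11.6 to 16.2 ± 4.59 CPM (SD, n = 3) and Nid2 RPF from 271 ± 14.2 to 122 ± 9.7 CPM, so Nid2 was the more abundant nidogen in both states. The difference between the falls of Nid1 and Nid2 was not tested.

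The heparan sulfate proteoglycans of the basement membrane changed by less than the fold limit in both assays. Hspg2 (perlecan) had 1004, 1001 and 1077 CPM in ESC and 1368, 1194 and 1197 CPM in EpiLC total RNA, and its RPF was 1528, 1633 and 1759 CPM and 1912, 2017 and 1689.7 CPM. The log2 changes of 0.30 ± 0.06 (SE, adjusted p = 0.000165) and 0.18 ± 0.06 (SE, adjusted p = 0.0225) stayed under the fold limit, and the RPF change turned to -0.0355 after a correction for GC content. Agrn (agrin) had 663, 655 and 674 CPM in ESC and 644, 558 and 569.7 CPM in EpiLC total RNA, a log2 change of -0.16 ± 0.06 (SE, adjusted p = 0.0245), and 0.05 ± 0.07 (SE, adjusted p = 0.543) in RPF, where the groups overlapped.

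**Figure D2:**
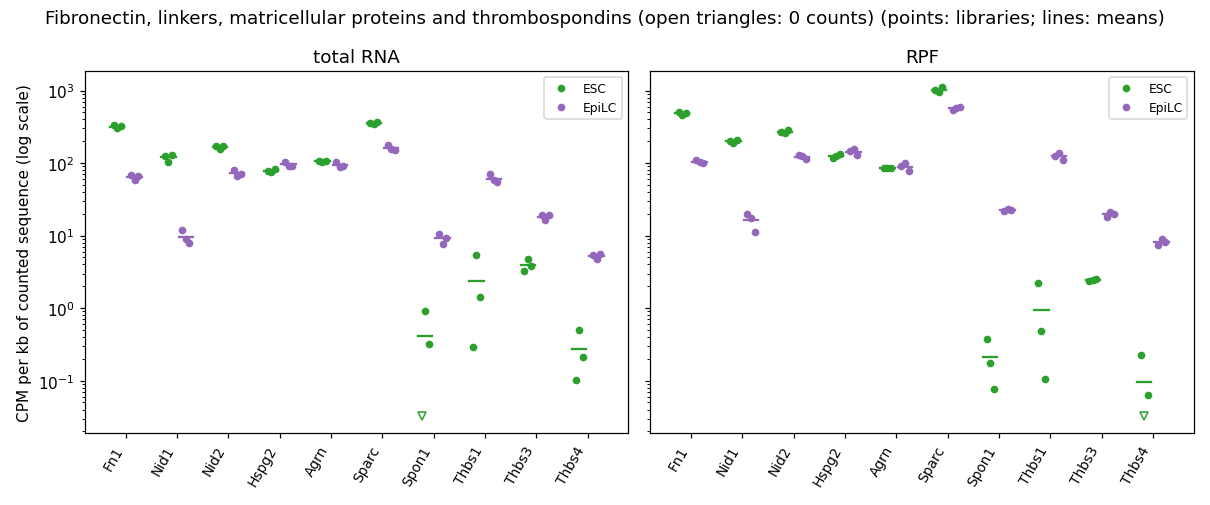
Level of fibronectin, the basement membrane linkers, the matricellular proteins and the thrombospondins in each library (vertical axis: CPM per kb, log scale; points: libraries; lines: group means; open triangles: 0 counts). Fn1, Nid1, Nid2 and Sparc are lower in EpiLC, Hspg2 and Agrn lie close together in both states, and Spon1 and the thrombospondins are higher in EpiLC.

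Among the alpha chains, Lama1 fell and Lama5 rose. Lama1 (chr17:67697380-67822449), the alpha chain known from the earliest embryonic basement membranes, had 265, 262 and 282 CPM in ESC and 35.9, 21.6 and 31.6 CPM in EpiLC total RNA, and 224, 246 and 269 CPM and 39.6, 31.9 and 27.02 CPM in RPF. Its log2 changes were -3.13 ± 0.12 (SE, adjusted p = 5.21e-17) and -2.93 ± 0.16 (SE, adjusted p = 3.72e-14). Lama5 (chr2:180176547-180225757), the widespread alpha chain of epithelial basement membranes, had 687, 741 and 685 CPM in ESC and 1501, 1399 and 1481 CPM in EpiLC total RNA, and 415, 413 and 448 CPM and 1285, 1376 and 1212 CPM in RPF. The log2 changes of Lama5 were 1.06 ± 0.05 (SE, adjusted p = 1.91e-15) and 1.59 ± 0.06 (SE, adjusted p = 6.73e-17), and the first came to 0.93, under the fold limit, after correction for GC content. For neither chain did the ESC and EpiLC libraries overlap. Per kb, the ratio of Lama1 to Lama5 went from 0.698 ± 0.0406 (SD, n = 3) in ESC RPF to 0.0307 ± 0.00565 in EpiLC RPF, and from 0.463 ± 0.0351 to 0.0244 ± 0.00523 in total RNA. Lama5 thus made up 53.4% ± 1.25 (SD) of the alpha chain RPF level per kb in ESC and 94.7% ± 0.647 in EpiLC. Of the other alpha chains, Lama3 fell from 63.4, 57.7 and 55.8 CPM to 16.5, 17.8 and 16.8 CPM in total RNA (log2 change -1.80 ± 0.11, SE, adjusted p = 3.68e-13) and had a log2 change of -2.02 ± 0.18 (SE) in RPF. Lama4 had log2 changes of -0.19 ± 0.21 (SE) and -0.20 ± 0.26 (SE) with overlapping groups, and Lama2 had at most 15 counts in any library and was not tested.

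The beta chains moved in opposite directions. Lamb1 (chr12:31265466-31329493) had 124, 157 and 136 CPM in ESC and 621, 589 and 604 CPM in EpiLC total RNA, and 184, 156 and 182 CPM and 784, 799 and 798 CPM in RPF. Its log2 changes of 2.13 ± 0.07 (SE, adjusted p = 2.29e-18) and 2.17 ± 0.07 (SE, adjusted p = 1.3e-17) are rises of 4.39-fold and 4.52-fold. Lamb2 (chr9:108480104-108490420) had 146, 145 and 149 CPM in ESC and 69.7, 64.6 and 76.1 CPM in EpiLC total RNA, and 180.1, 174 and 172 CPM and 59.5, 70.7 and 63.6 CPM in RPF, with log2 changes of -1.06 ± 0.07 (SE, adjusted p = 2.24e-12) and -1.46 ± 0.09 (SE, adjusted p = 6.89e-13). In ESCs the pair had nearly equal RPF levels per kb, at 31.9 ± 2.94 CPM for Lamb1 and 32.8 ± 0.787 CPM for Lamb2 (SD, n = 3). In EpiLCs the levels were 145 ± 1.602 CPM and 12.1 ± 1.06 CPM, and Lamb1 then made up 90.999% ± 0.6305 (SD) of the beta chain RPF level. Lamb3 had log2 changes of 0.79 ± 0.28 (SE, adjusted p = 0.0172) and 0.97 ± 0.34 (SE, adjusted p = 0.0159), under the fold limit.

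Lamc1 (chr1:153221473-153332494), the gamma chain shared by most laminins, fell. It had 1703, 1645 and 1786 CPM in ESC and 549, 439.7 and 525 CPM in EpiLC total RNA. Its RPF was 2650.1, 2873 and 2900.1 CPM in ESC and 959, 862 and 795 CPM in EpiLC. The log2 changes were -1.75 ± 0.07 (SE, adjusted p = 3.31e-17) and -1.69 ± 0.07 (SE, adjusted p = 2.32e-16). All EpiLC libraries lay below all ESC libraries. Lamc3 had at most 18 counts in any library and was not tested.

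Since a laminin holds 1 chain of each kind, the levels per kb of the alpha and beta chains can be set beside that of Lamc1. In ESC RPF the beta chains summed to 0.113 ± 0.0105 (SD, n = 3) and the alpha chains to 0.122 ± 0.00423 of the Lamc1 level. In EpiLC RPF these ratios were 0.881 ± 0.0892 and 0.675 ± 0.0574. In total RNA the beta to Lamc1 ratio went from 0.151 ± 0.0134 to 1.198 ± 0.108 and the alpha to Lamc1 ratio from 0.279 ± 0.0157 to 1.31 ± 0.103. The Lamc1 level therefore stood far above the alpha and beta levels in ESCs and came close to them in EpiLCs. Between the leading chains, Lamc1 to Lamb1 was 18.5 ± 2.36 (SD) in ESC RPF and 1.26 ± 0.132 in EpiLC RPF. These ratios are descriptions, since genes can differ in how well their sequence is captured and mapped.

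**Figure D3:**
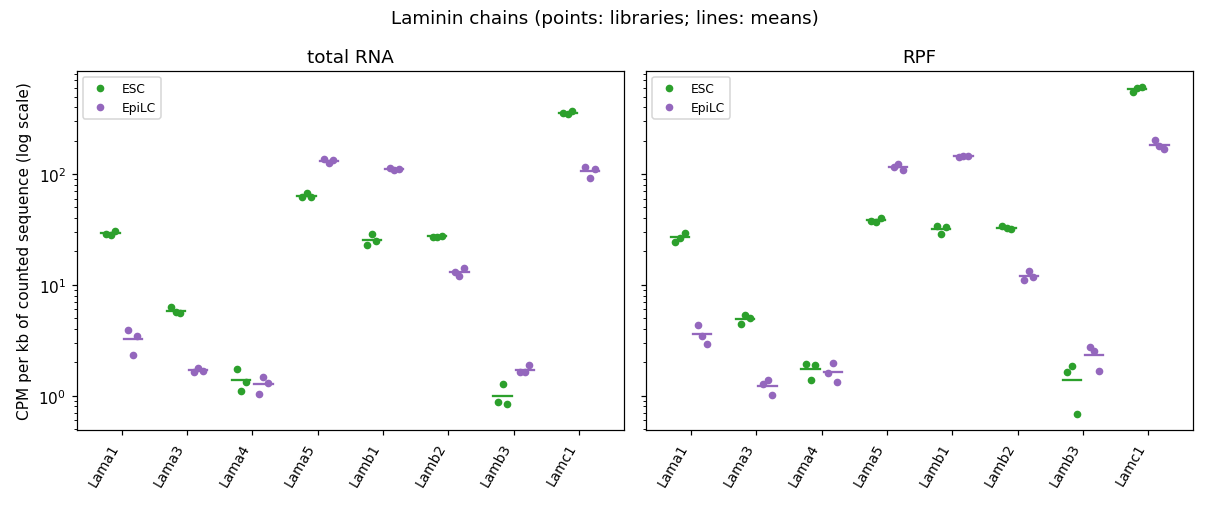
Level of 8 laminin chains in each library (vertical axis: CPM per kb, log scale; points: libraries; lines: group means). Lama5 and Lamb1 are higher in EpiLC, Lama1, Lama3, Lamb2 and Lamc1 are lower, and Lama4 overlaps between the states.

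The promoters of Lamb1, Lamb2 and Nid1 are shown because these genes changed clearly and, for the beta chains, in opposite directions. Each window runs from 250 bases before to 50 bases after the RefSeq start (GRCm38.p6) and capitals mark GGGCGG or its reverse complement CCGCCC, the GC box, which 35.7% of all 32851 windows of the table hold on either strand.
Lamb1, chr12:31265043-31265342, plus strand: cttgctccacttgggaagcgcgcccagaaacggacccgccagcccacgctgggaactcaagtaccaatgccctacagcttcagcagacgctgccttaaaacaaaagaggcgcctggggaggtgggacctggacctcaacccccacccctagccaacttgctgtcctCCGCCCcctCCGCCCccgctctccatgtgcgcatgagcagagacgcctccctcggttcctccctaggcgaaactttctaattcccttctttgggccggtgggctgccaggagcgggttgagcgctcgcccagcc
Lamb2, chr9:108479612-108479911, plus strand: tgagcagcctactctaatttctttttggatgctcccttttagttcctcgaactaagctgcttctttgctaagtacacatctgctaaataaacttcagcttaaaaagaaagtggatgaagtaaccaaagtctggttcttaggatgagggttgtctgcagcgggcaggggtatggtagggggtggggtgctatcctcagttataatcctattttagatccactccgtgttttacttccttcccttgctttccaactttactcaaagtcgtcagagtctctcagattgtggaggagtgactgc
Nid1, chr13:13437352-13437651, plus strand: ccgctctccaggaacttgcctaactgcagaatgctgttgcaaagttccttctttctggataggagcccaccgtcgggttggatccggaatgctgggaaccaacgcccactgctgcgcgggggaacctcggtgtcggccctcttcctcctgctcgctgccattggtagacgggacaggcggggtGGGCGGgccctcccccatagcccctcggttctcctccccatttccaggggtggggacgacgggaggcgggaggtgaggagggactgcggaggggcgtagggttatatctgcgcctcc
The Lamb1 window holds 2 GC boxes and the Nid1 window 1, while the Lamb2 window holds 0. None of the 3 holds TATAAA on either strand, which is found in 13.6% of all windows. CpG pairs number 18 in the Lamb1 window, 4 in the Lamb2 window and 20 in the Nid1 window, against a median of 7 over all windows. The windows are descriptions of sequence and no binding was measured. Windows were found for 69 of the 97 members. Fn1, Lama1, Lamc1, Thbs1, Nid2 and Spon1 had no entry.

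Collagen IV, the network collagen of basement membranes, rose. Col4a1 (chr8:11199801-11312554) had 71.4, 87.3 and 78.02 CPM in ESC and 189.9, 172 and 179 CPM in EpiLC total RNA, and 107, 129.5 and 128 CPM and 268, 302 and 259.5 CPM in RPF. Col4a2 (chr8:11313631-11448316), its partner in the trimer, had 34.05, 42.2 and 42.3 CPM in ESC and 87.1, 83.6 and 84.1 CPM in EpiLC total RNA, and 61.3, 64.5 and 67.5 CPM and 146, 173 and 138 CPM in RPF. No EpiLC library of either gene fell into the ESC range. The log2 changes of Col4a1 were 1.21 ± 0.08 (SE, adjusted p = 2.86e-12) and 1.18 ± 0.09 (SE, adjusted p = 2.08e-11), and those of Col4a2 1.12 ± 0.09 (SE, adjusted p = 1.23e-10) and 1.21 ± 0.10 (SE, adjusted p = 9.5e-11). With a correction for GC content, Col4a2 came to 0.93 and 0.97 and Col4a1 RPF to 0.99, just under the fold limit. Per kb, the ratio of Col4a1 to Col4a2 was 1.93 ± 0.137 (SD, n = 3) in ESC RPF and 1.86 ± 0.0685 in EpiLC RPF, and 2.05 ± 0.1403 and 2.17 ± 0.0624 in total RNA.

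Col4a1 and Col4a2 lie head to head on opposite strands, with RefSeq starts 21 bases apart, and their windows are shown because the pair starts from 1 shared stretch of sequence. Capitals again mark the GC box.
Col4a1, chr8:11312777-11313076, minus strand: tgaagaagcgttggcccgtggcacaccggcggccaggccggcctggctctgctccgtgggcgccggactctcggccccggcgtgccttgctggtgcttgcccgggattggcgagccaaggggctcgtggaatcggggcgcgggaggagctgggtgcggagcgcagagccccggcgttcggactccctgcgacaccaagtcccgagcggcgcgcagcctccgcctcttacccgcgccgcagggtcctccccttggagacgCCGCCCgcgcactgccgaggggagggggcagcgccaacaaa
Col4a2, chr8:11312555-11312854, plus strand: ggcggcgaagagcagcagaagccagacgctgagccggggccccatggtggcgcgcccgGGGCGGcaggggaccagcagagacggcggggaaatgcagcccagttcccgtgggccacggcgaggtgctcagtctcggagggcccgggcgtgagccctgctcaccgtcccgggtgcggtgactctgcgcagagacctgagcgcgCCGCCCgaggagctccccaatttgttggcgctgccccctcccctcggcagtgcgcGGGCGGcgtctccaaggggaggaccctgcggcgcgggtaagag
The windows overlap by 78 bases, and 1 GC box in that overlap is read as CCGCCC in the Col4a1 window and as GGGCGG in the Col4a2 window. Altogether the Col4a2 window holds 3 GC boxes and the Col4a1 window 1. The sequence is rich in CpG, with 37 pairs in the Col4a1 and 33 in the Col4a2 window, and neither holds TATAAA on either strand.

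Of the remaining collagen IV chains, Col4a5 was close to absent in ESCs. It passed the filter through EpiLC alone, so the direction of its change is a description. Its counts were 2, 8 and 3 in ESC and 66, 31 and 39 in EpiLC total RNA, and 0, 0 and 0 in ESC and 15, 9 and 6 in EpiLC RPF. The total RNA change was 3.79 ± 0.54 (log2, SE, adjusted p = 1.13e-06), or 4.30 without replicate 2 of ESC total RNA. With 3 counts per library taken as the limit of detection, its mean RPF level was at least 4.001-fold higher in EpiLC. Here and below, such bounds set the mean of the higher group against the highest limit in the lower group. Single libraries can lie below them. Col4a6, whose start lies 1343 bases from that of Col4a5 on the other strand, had 0, 2 and 0 counts in ESC and 26, 5 and 18 in EpiLC total RNA, at least 5.96-fold more by the same limit, and was too low for the test. Col4a3 and Col4a4 had at most 4 counts in any library.

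Col18a1, a heparan sulfate collagen of basement membranes, was the most abundant collagen in both states. It had 274, 336 and 321 CPM in ESC and 878, 790.1 and 911 CPM in EpiLC total RNA, and 423, 427 and 449 CPM and 1259, 1405 and 1313 CPM in RPF, with log2 changes of 1.48 ± 0.07 (SE, adjusted p = 6.69e-16) and 1.60 ± 0.07 (SE, adjusted p = 7.22e-16). Per kb its RPF level rose from 81.4 ± 2.64 to 249 ± 13.97 CPM (SD, n = 3). The groups lay well apart.

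Of the 11 fibrillar collagens, 7 were tested, 4 rose in both assays and 3 were not called. Col2a1 (chr15:97976040-98004448), the main collagen of cartilage, had the largest change of these in CPM. It had 8.24, 12.6 and 9.09 CPM in ESC and 71.2, 62.3 and 65.3 CPM in EpiLC total RNA, and 7.95, 7.66 and 7.06 CPM and 110.3, 122 and 101 CPM in RPF, without overlap. The log2 changes were 2.78 ± 0.14 (SE, adjusted p = 5.05e-15) and 3.86 ± 0.18 (SE, adjusted p = 4.74e-15). Col1a1, Col5a2 and Col27a1 also rose, each staying below 15 CPM in every library, with log2 changes in total RNA of 2.11, 2.495 and 1.66. The direction of these changes is a description, since Col5a2 passed the filter through EpiLC alone and the filter leaned on EpiLC for Col1a1 and Col27a1. Col1a2, the partner of Col1a1 in type I collagen, had 2, 2 and 1 counts in ESC and 53, 14 and 17 in EpiLC total RNA and was not tested. Col5a1 was not called, with 31.7, 33.2 and 35.1 CPM in ESC and 35.1, 30.6 and 32.8 CPM in EpiLC total RNA and overlapping groups. Col11a1 and Col5a3 had total RNA changes of 0.57 ± 0.22 (SE) and -0.62 ± 0.22 (SE) and were not called. Col3a1, Col11a2 and Col24a1 were not tested, with at most 28 counts in any library.

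Among fibril-associated collagens, the chains of type IX collagen went apart. Col9a2 (chr4:121039760-121054795) fell from 23.2, 25.4 and 30.6 CPM to 8.61, 6.41 and 8.59 CPM in total RNA and from 52.3, 50.6 and 49.1 CPM to 17.2, 23.2 and 10.7 CPM in RPF, with log2 changes of -1.68 ± 0.19 (SE, adjusted p = 1.9e-08) and -1.74 ± 0.19 (SE, adjusted p = 2.65e-08). Col9a3 rose from 3.43, 3.96 and 3.52 CPM to 11.6, 9.29 and 12.6 CPM in total RNA, a log2 change of 1.64 ± 0.22 (SE, adjusted p = 5.81e-07). Col9a1, the chain that completes the trimer, had at most 2 counts in any library. Col16a1 and Col22a1 rose in both assays by 1.27 and 1.39 on the log2 scale in total RNA, at low levels. Both passed the filter through EpiLC alone, so this direction is a description.

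The other collagens were scarce, and several of them were near the filter. Col6a2 and Col8a2 passed it through EpiLC alone, so the direction of their changes is a description. Col6a2, a chain of the beaded filaments, had 0.583, 1.096 and 0.429 CPM in ESC and 8.48, 4.81 and 5.04 CPM in EpiLC total RNA (log2 change 3.24 ± 0.46, SE, adjusted p = 1.07e-06) and 0.897, 1.06 and 0.275 CPM and 11.6, 14.8 and 10.7 CPM in RPF (log2 change 4.24 ± 0.53, SE, or 3.49 without replicate 3 of ESC RPF). Its partners Col6a1 and Col6a3 were not tested, with at most 16 counts in any library. Col8a2, a short chain of hexagonal networks, had 0.0729, 0.253 and 0.429 CPM in ESC and 4.47, 4.81 and 3.21 CPM in EpiLC total RNA, a log2 change of 4.10 ± 0.57 (SE, adjusted p = 8.3e-07), or 3.48 without replicate 1 of ESC total RNA. In RPF it rose by 3.06 on the log2 scale. Col7a1, the anchoring fibril collagen, was called in RPF (1.54 ± 0.30, SE, adjusted p = 9.3e-05) and not in total RNA (0.55 ± 0.22, SE, adjusted p = 0.0333), and its difference between the assays had an adjusted p of 0.213.

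Of the 4 collagens that span the membrane, Col13a1 and Col17a1 were tested and were lower in EpiLC. Col17a1, and Col26a1 below, passed the filter through ESC alone, and for Col13a1 the filter leaned on ESC. The direction of these changes is a description. Col13a1 had 6.27, 5.06 and 7.54 CPM in ESC and 0.601, 0.481 and 0.802 CPM in EpiLC total RNA, and 11.3, 12.3 and 11.2 CPM and 3.94, 3.04 and 1.501 CPM in RPF, with log2 changes of -3.21 ± 0.44 (SE, adjusted p = 6.58e-07) and -2.12 ± 0.36 (SE, adjusted p = 1.76e-05). Col17a1, a hemidesmosome collagen, had a log2 change of -1.61 in total RNA, and its RPF, at most 3 counts in each EpiLC library, was at least 2.901-fold lower. Col25a1 was not tested and went the other way, with 1, 2 and 0 counts in ESC and 12, 10 and 5 in EpiLC total RNA, at least 3.86-fold more by the limit of 3 counts per library, and Col23a1 had at most 6 counts in any library. Col26a1, which is not of this kind, fell from 3.86, 6.15 and 5.23 CPM to 1.402, 0.801 and 0.344 CPM in total RNA (log2 change -2.51 ± 0.44, SE, adjusted p = 2.2e-05, or -3.12 without replicate 1 of EpiLC total RNA) and had a log2 change of -1.996 ± 0.49 (SE) in RPF.

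The leading integrin was Itgb1 (chr8:128705458-128732088), the beta subunit shared by most laminin, fibronectin and collagen receptors, and it rose. It had 394, 466 and 405 CPM in ESC and 998, 1061 and 965 CPM in EpiLC total RNA, and 491, 489 and 450.5 CPM and 1109.7, 1069 and 1066 CPM in RPF. Its log2 changes were 1.26 ± 0.06 (SE, adjusted p = 1.07e-15) and 1.19 ± 0.06 (SE, adjusted p = 3.85e-14), rises of 2.39-fold and 2.28-fold. Itgb1 made up 81.98% ± 2.41 (SD, n = 3) of the beta subunit RPF level per kb in ESC and 94.5% ± 0.783 in EpiLC.

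Of the laminin receptors, Itga3 rose and Itga6 stayed under the fold limit. Itga3 rose from 80.9, 86.3 and 85.1 CPM to 219.6, 186 and 179 CPM in total RNA and from 119, 108 and 122 CPM to 281, 286 and 219.9 CPM in RPF, with log2 changes of 1.23 ± 0.09 (SE, adjusted p = 9.52e-12) and 1.13 ± 0.10 (SE, adjusted p = 3.28e-10). Itga6 had 301, 297 and 303 CPM in ESC and 239, 245 and 232 CPM in EpiLC total RNA, and 287, 278 and 279 CPM and 196, 197 and 200.2 CPM in RPF. The Itga6 groups did not overlap, and the log2 changes of -0.33 ± 0.05 (SE, adjusted p = 4.87e-06) and -0.51 ± 0.06 (SE, adjusted p = 1.98e-07) were under the fold limit. Per kb, Itga6 RPF went from 84.2 ± 1.51 to 59.3 ± 0.619 CPM (SD, n = 3) and Itga3 RPF from 34.8 ± 2.16 to 78.6 ± 11.04 CPM, so Itga6 led in ESC and Itga3 in EpiLC. In total RNA Itga6 led in both states, at 89.999 ± 0.917 and 71.5 ± 1.99 CPM per kb against 25.2 ± 0.848 and 58.4 ± 6.44 CPM for Itga3. Itgb4, which pairs with Itga6 in hemidesmosomes, fell from 38.8, 33.5 and 39.4 CPM to 17.6, 17.3 and 13.1 CPM in total RNA, a log2 change of -1.21 ± 0.15 (SE, adjusted p = 9.03e-08) there and -1.36 ± 0.18 (SE, adjusted p = 4.11e-07) in RPF. Itga7 was low and not called.

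The fibronectin and vitronectin receptors Itga5 and Itgav fell by less than the fold limit while Fn1 fell by far more. Itga5 had 145, 135 and 135 CPM in ESC and 81.99, 93.3 and 72.2 CPM in EpiLC total RNA, and Itgav 139, 128 and 135 CPM and 104, 107 and 101 CPM. Their log2 changes in total RNA were -0.77 ± 0.08 (SE, adjusted p = 5.55e-09) and -0.37 ± 0.07 (SE, adjusted p = 3.11e-05), and in RPF -0.73 ± 0.09 (SE, adjusted p = 1.48e-07) and -0.44 ± 0.07 (SE, adjusted p = 1.33e-05). The ESC and EpiLC libraries did not overlap for either gene. The beta partners of Itgav differed. Of these, Itgb3 passed the filter through ESC alone and Itgb8 through EpiLC alone, so the direction of their changes is a description. Itgb5 had 124, 124 and 136 CPM in ESC and 130.3, 103 and 114 CPM in EpiLC total RNA, with overlapping groups and a log2 change of -0.12 ± 0.08 (SE, adjusted p = 0.2). Itgb3 fell from 8.603, 8.43 and 6.601 CPM to 2.07, 2.08 and 1.95 CPM in total RNA (log2 change -1.92 ± 0.34, SE, adjusted p = 2.38e-05). In RPF Itgb3 changed by -2.78 ± 0.53 (log2, SE, adjusted p = 7.2e-05), or by -1.82 without replicate 3 and -3.42 without replicate 1 of EpiLC RPF. Itgb8, which with Itgav binds latent TGF-beta, had 1, 5 and 1 counts in ESC and 75, 32 and 34 in EpiLC total RNA, and 1, 0 and 1 counts and 22, 3 and 24 counts in RPF. Its total RNA change was 4.66 ± 0.61 (log2, SE, adjusted p = 3.28e-07), or 5.31 without replicate 2 of ESC total RNA. Its mean RPF was at least 5.33-fold higher in EpiLC by the limit of 3 counts per library, though replicate 2 of EpiLC RPF was itself at that limit.

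Of the integrins better known from leukocytes, Itgal, Itgae and Itgb7 were counted at low levels in ESCs and were lower in EpiLCs, while Itgad and Itgax had 0 counts throughout and Itgam and Itgb2 were too low for the test. Itgal, Itgae and the collagen receptor Itga10 passed the filter through ESC alone, and the filter leaned on ESC for Itgb7. The direction of these changes is a description. Itgal had 11.2, 15.004 and 10.3 CPM in ESC and 0.534, 1.44 and 0.229 CPM in EpiLC total RNA, and 13.2, 12.3 and 14.3 CPM and 0.8295, 1.52 and 0.751 CPM in RPF, with log2 changes of -4.36 ± 0.48 (SE, adjusted p = 1.52e-08) and -3.70 ± 0.53 (SE, adjusted p = 1.44e-06). Itgb2, the beta subunit that Itgal pairs with, had at most 7 counts in any library. Itgb7 fell from 15.97, 14.8 and 18.1 CPM to 1.47, 0.961 and 2.29 CPM in total RNA and from 16.2, 15.3 and 24.8 CPM to 3.11, 2.28 and 2.63 CPM in RPF, with log2 changes of -3.36 ± 0.35 (SE, adjusted p = 7.59e-09) and -2.78 ± 0.39 (SE, adjusted p = 1.44e-06). Itgae, the alpha subunit that pairs with Itgb7, had a log2 change of -3.16 ± 0.52 (SE, adjusted p = 8.62e-06) in total RNA. Its RPF change of -1.13 ± 0.48 (SE, adjusted p = 0.0461) was at the threshold and lost the call with total-count scaling (adjusted p = 0.0526) or without any of 7 single libraries. The collagen receptor Itga10, which shares 429 counted bases with another gene and is therefore uncertain, had a log2 change of -2.26 in total RNA. Itga1 had 5, 3 and 3 counts in ESC and 37, 20 and 20 in EpiLC total RNA, Itga4 0, 3 and 1 and 36, 10 and 19, and neither was tested. For Itga4, whose ESC libraries lay within 3 counts, the total RNA level was at least 8.01-fold higher in EpiLC. Itga9 had overlapping groups in both assays.

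All alpha subunits summed to a lower level per kb than Itgb1 in EpiLCs. The ratio of Itgb1 to that sum was 0.796 ± 0.0566 (SD, n = 3) in ESC RPF and 2.01 ± 0.0759 in EpiLC RPF, and 0.828 ± 0.0875 and 2.14 ± 0.0855 in total RNA.

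**Figure D4:**
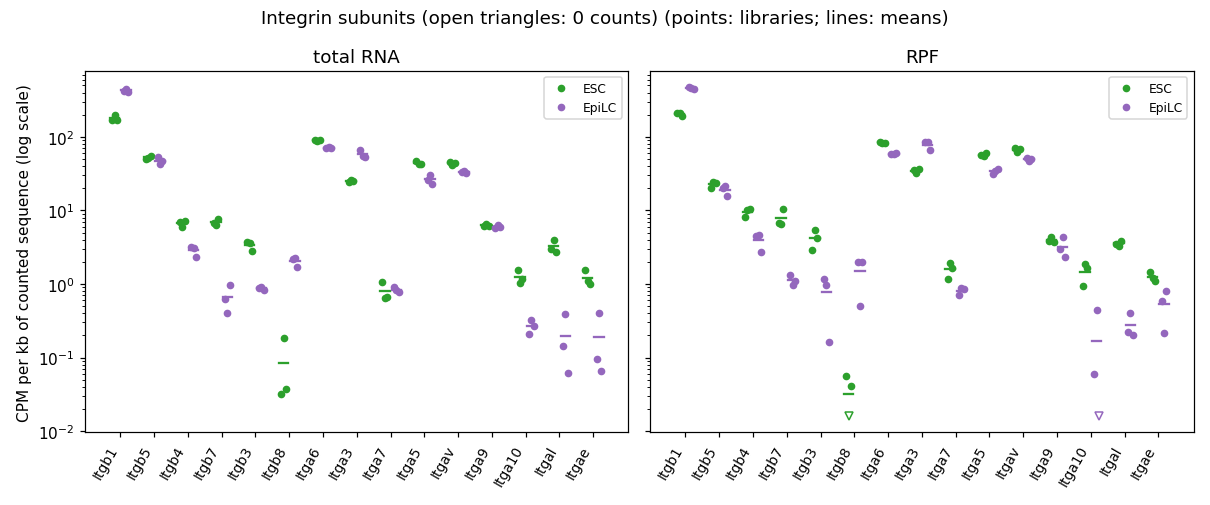
Level of the 15 tested integrin subunits in each library (vertical axis: CPM per kb, log scale; points: libraries; lines: group means; open triangles: 0 counts). Itgb1 is the highest subunit in both states and rises with Itga3 and Itgb8, while Itgb7, Itgb3, Itgal, Itgae and Itga10 are lower in EpiLC.

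Thrombospondins and spondin 1 are secreted proteins that bind cells and matrix, and Thbs1 and Spon1 had the largest fitted rises of all members. Thbs1 (chr2:118112688-118125029) had 1.02, 18.97 and 4.97 CPM in the ESC total RNA libraries 1, 2 and 3 and 247, 199.8 and 191 CPM in EpiLC. In RPF the values were 7.69, 1.702 and 0.367 CPM in ESC and 428, 479.5 and 387 CPM in EpiLC. The ESC libraries differed widely among themselves, with replicate 2 high in total RNA and replicate 1 high in RPF, and all of them lay far below the EpiLC libraries. The log2 change in total RNA was 5.63 ± 0.46 (SE, adjusted p = 9.78e-11). It came to 6.62 without replicate 2 and 4.45 without replicate 1 of ESC total RNA. In RPF it was 8.13 ± 0.88 (SE, adjusted p = 2e-08), or 9.21 without replicate 1 and 6.56 without replicate 3 of ESC RPF.

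Spon1 had 0, 2.19 and 0.772 CPM in ESC and 24.97, 18.6 and 22.3 CPM in EpiLC total RNA, and 0.897, 0.425 and 0.183 CPM and 53.1, 55.5 and 53.9 CPM in RPF. Its log2 change in total RNA was 5.93 ± 0.71 (SE, adjusted p = 7.31e-08), or 7.03 without replicate 2 and 4.06 without replicate 1 of ESC total RNA, and 6.88 ± 0.76 (SE, adjusted p = 2.84e-08) in RPF, or 6.14 without replicate 3 of ESC RPF. The 3 ESC libraries of each assay lay below 3 CPM and the EpiLC libraries far above them. Since Spon1, like Thbs4, passed the filter through EpiLC alone, the direction of its change is a description.

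Thbs4 rose from 0.292, 1.43 and 0.6001 CPM to 15.4, 13.6 and 15.7 CPM in total RNA and from 0.641, 0 and 0.183 CPM to 20.9, 25.5 and 23.5 CPM in RPF. Its log2 changes were 4.52 ± 0.43 (SE, adjusted p = 1.51e-09) and 6.48 ± 0.61 (SE, adjusted p = 1.86e-09), the first being 5.06 without replicate 2 of ESC total RNA and the second 7.16 without replicate 1 and 5.89 without replicate 2 of ESC RPF. Thbs3, the member of the family that was readily counted in ESCs, rose from 9.19, 13.4 and 10.6 CPM to 53.7, 46.9 and 53.6 CPM in total RNA, by 2.25 ± 0.13 (log2, SE, adjusted p = 7.96e-14) there and 2.98 ± 0.19 (SE, adjusted p = 1.17e-12) in RPF. Thbs2 had 0, 8 and 3 counts in ESC and 39, 13 and 26 in EpiLC total RNA and was not tested. In RPF, where no ESC library of Thbs2 had a count, its mean level was at least 4.01-fold higher in EpiLC.

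Sparc, a collagen-binding protein and the member with the highest RPF level per kb in both states, fell moderately. It had 341, 331 and 349 CPM in ESC and 167, 148 and 143 CPM in EpiLC total RNA, and 967, 910.0 and 1056 CPM and 517, 551 and 560.0 CPM in RPF, without overlap. The log2 change of -1.15 ± 0.07 (SE, adjusted p = 2.93e-13) in total RNA passed the fold limit and that of -0.86 ± 0.06 (SE, adjusted p = 1.86e-11) in RPF did not. Its difference between the assays, 0.29 ± 0.09 (log2, SE), had an adjusted p of 0.139.

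Translational efficiency (TE) is the RPF level over the total RNA level, and its change was tested as the interaction of assay and cell type. Col2a1 was the 1 member with a called rise, while 0.136% of all tested genes rose and 0.119% fell. No member fell by limma, edgeR or DESeq2 (0 by each), and at an unadjusted p below 0.05 limma had 9 members higher and 4 lower of 57, where 6.89% of all tested genes were higher and 7.02% lower. The log2 TE of Col2a1, taken between libraries of the same number, was -0.05, -0.71 and -0.36 in ESC and 0.63, 0.97 and 0.63 in EpiLC. The groups did not overlap, and the change was 1.08 ± 0.23 (SE, adjusted p = 0.0168). It lost the call without replicate 3 of ESC RPF (1.02, adjusted p = 0.0556) and without replicate 2 of ESC total RNA (0.91, adjusted p = 0.0658).

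Lama5 had the TE change with the lowest p among the members and stayed under the fold limit. Its log2 TE was -0.73, -0.84 and -0.61 in ESC and -0.22, -0.02 and -0.29 in EpiLC, a change of 0.53 ± 0.08 (SE, adjusted p = 0.000497), so RPF rose more than total RNA did. That change remained past an adjusted p of 0.05 in every alternative fit, and ran from 0.49 to 0.58 when single libraries were left out. The other 55 members had adjusted p-values of 0.0846 or more. Lamb2 was the first of these, at -0.40 ± 0.12 (SE, adjusted p = 0.0846). Of the 12 members above 100 CPM in all 4 groups, TE changes lay between -0.17 and 0.53, the latter being Lama5. Thbs1 and Thbs4 had larger changes with wide errors, 2.496 ± 0.995 and 1.96 ± 0.75 (log2, SE), and adjusted p-values of 0.246 and 0.22. Without replicate 1 of ESC total RNA, Thbs1 reached 3.67 (adjusted p = 0.0154) and Spon1 2.82 (adjusted p = 0.0439). Without replicate 2 of ESC total RNA, Spon1 turned to -0.15 (adjusted p = 0.979).

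Members differed in TE level within a state. Sparc had a log2 TE of 1.52 ± 0.07 (SD, n = 3) in ESC and 1.83 ± 0.18 in EpiLC, Lamc1 0.71 ± 0.08 and 0.79 ± 0.19, Nid1 0.74 ± 0.08 and 0.74 ± 0.23, and Fn1 0.62 ± 0.01 and 0.69 ± 0.13. Itgb5 was low, at -1.20 ± 0.13 and -1.31 ± 0.30, and Itga6 was near 0, at -0.10 ± 0.03 and -0.27 ± 0.05. The median over the tested members was 0.26 in ESC and 0.39 in EpiLC, and over all tested genes it was -0.02 and -0.01.

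**Figure D5:**
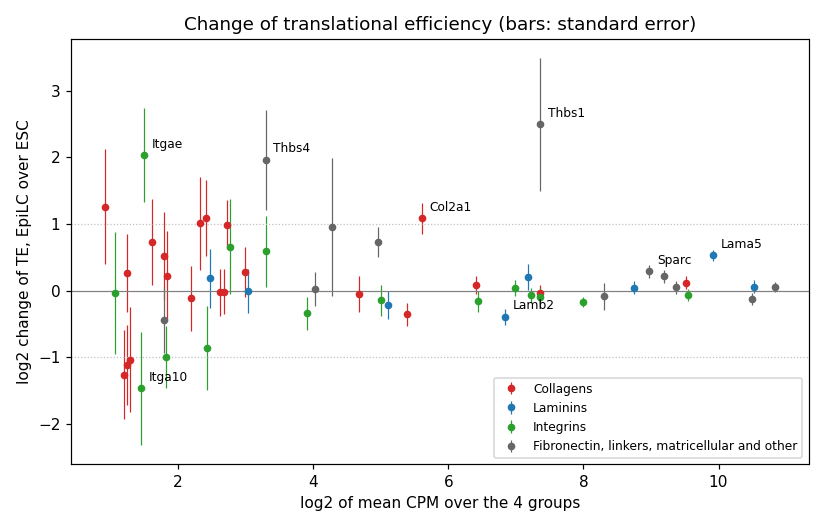
Change of TE from ESC to EpiLC for 56 of the 57 tested members (vertical axis: log2 change, bars are standard errors, dotted lines mark 1 and -1) against abundance (horizontal axis: log2 of the mean CPM over the 4 groups). Members above 100 CPM in all 4 groups lie between -0.17 and 0.53, the latter being Lama5. Col2a1 lies at 1.08, and Thbs1, whose mean is high through EpiLC, lies above it. The widest bars belong to members of low abundance and to Thbs1.

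Genes that modify, cut or anchor the matrix also moved in both directions. A list of 111 symbols had 109 in the table and 91 tested, of which 38 rose, 13 fell and 40 were not called in total RNA, beside 14.6% and 9.70% of all tested genes, and 38 rose and 12 fell in RPF, beside 15.4% and 10.6%. Of the 91, 14 reached 3 CPM in one cell type alone, so passing the filter fixed their direction, which is a description. Of the genes named below, Pcolce and Tns1 lay above 3 CPM in every total RNA library of both cell types. For the other named genes the route through the filter is not given, and Fermt1 lay below 3 CPM in all ESC total RNA libraries. The direction of their changes is therefore also taken as a description. Of the other 77, 26 rose and 12 fell in total RNA. TE calls in the list by limma, edgeR and DESeq2 were 0 in either direction. At an unadjusted p below 0.05 in limma 11 were higher and 4 lower, beside the shares of 6.89% and 7.02% of all tested genes. Among 25 tested genes of collagen folding and cross-linking, 8 rose and 5 fell in total RNA. P3h2, a prolyl 3-hydroxylase, had the largest rise (3.91 ± 0.47, log2, SE, adjusted p = 7.26e-08), and Pcolce, an enhancer of procollagen cleavage, the largest fall, from 92.3, 90.7 and 101 CPM to 14.6, 10.4 and 12.3 CPM (-2.87 ± 0.15, SE, adjusted p = 2.6e-14). Of 12 tested proteases and inhibitors 6 rose, led by Adamts1 (4.28 ± 0.40, SE, adjusted p = 8.44e-10), and 1 fell, the inhibitor Timp1 (-2.08 ± 0.21, SE, adjusted p = 4.88e-09). Of 28 tested proteoglycans and other matrix proteins 16 rose and 3 fell, with the small proteoglycan Dcn (4.998 on the log2 scale, or 5.70 without replicate 2 of ESC total RNA) and the syndecan Sdc4 (-1.05) at the ends. Of 6 tested other matrix receptors, Cd44 and Ddr1 rose and Ddr2 fell. The hyaluronan receptor Cd44 changed by 3.27 and the collagen receptor Ddr2 by -5.01 on the log2 scale in total RNA. Of 20 tested proteins of integrin adhesions 6 rose and 3 fell. Fermt1 (kindlin-1), an integrin activator, rose from 0.5103, 2.78 and 0.686 CPM to 25.3, 20.5 and 24.98 CPM (4.57 ± 0.39, SE, adjusted p = 1.6e-10, or 5.26 without replicate 2 of ESC total RNA) and Tns1 (tensin 1), which links integrins to actin, fell from 75.8, 58.5 and 71.9 CPM to 7.54, 5.93 and 7.45 CPM (-3.25 ± 0.19, SE, adjusted p = 1.77e-13).

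The remaining members add little RNA. Of the 40 untested members, 6 had 0 counts in all 12 libraries, 12 had at most 3 counts in every library and 21 had 10 or more counts in some library. Col10a1, Itga2, Itgb2l, Itgad, Itgax and Itgbl1 were the 6 with 0 counts. A total of 0 counts allows up to 3 counts per library, which is 0.205 to 1.12 CPM at these depths and covers counting error only. Itgam, with at most 4 counts, shares 3345 counted bases with another gene. The integrin-binding proteins Itgb1bp1 and Itgb3bp had overlapping groups in both assays.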

How the data were processed

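Libraries were made with the TruSeq Ribosome Profiling kit. Per the file headers, labels and methods, the authors trimmed reads (cutadapt 1.14), mapped them to mm10 with Gencode M14 (STAR 2.5.3a, reads with 1 position) and deposited raw counts of read 5' ends on the sense strand of coding sequence without its first bases (featureCounts 1.5.3). The treatment of PCR duplicates is not given in the sources used here. Members (97 genes) and the other gene and marker lists were chosen with earlier results of these data known. Counts were scaled by the trimmed mean of M values and fitted by voom and limma 3.58.1 (edgeR 4.0.16, R 4.3.3), with the 4 groups over 12 libraries and p adjusted over 11750 genes at 3 CPM or more in 3 libraries. Alternatives were edgeR's quasi-likelihood test, DESeq2 1.42.0, other scalings and filters, a replicate block, each library left out and, added after seeing the data, a GC correction. The fit was tested on simulated data. Named with values were members called for TE, in each family the 3 largest called rises and falls in total RNA, the 2 highest RPF levels per kb in either state, and the subunits of fixed assemblies. Other members are named where their family is accounted for, and 1 member is not reported here. Of the other list, the largest called rise and fall of each group were named. Depth ranged from 2681439 to 14655015 counts. All coordinates of genes are spans of counted sequence in mm10, and promoter windows are RefSeq's (GRCm38.p6).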

Additional observations from a re-analysis of the deposited data

How the results depend on the processing

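Counts of called genes, among the members and in the other matrix list, were recomputed. They kept within 1.5 times the reported count in 139 of 150 values, where 0 beside 0 was taken as kept. With no filter, where more genes enter the test, 35 members were called higher in total RNA and 37 in RPF. The counts of members called lower stayed within 1.5 times those of the main fit, 19 in total RNA and 18 in RPF. Shares over all genes are not given for these other filters, so the counts cannot be set against the background. With at least 10 counts in every library 10 were higher and 11 lower in total RNA, and 11 higher and 10 lower in RPF, since fewer members enter the test. With no fold limit, 2 members had a higher TE. Leaving out single libraries gave 0 to 3 members with a higher TE. The replicate number was also fitted as a block. Same-numbered libraries of the 2 cell types deviated with correlations of -0.01 to 0.04, and those of the 2 assays within a cell type with -0.18 to 0.16. The study calls the total RNA matched to the footprints, and the correlations do not settle whether a number marks a shared culture. With the replicate block 22 members rose and 19 fell in total RNA, 23 and 18 in RPF and 1 and 0 in TE, and in the other matrix list 1 gene had a higher TE. A block that joined the assays by number gave 22, 19, 23, 18, 1 and 0. Of 102 named values (34 members), 81 kept their direction and side of the threshold in every alternative. GC correction put Col4a1 RPF at 0.99, Col4a2 at 0.93 and 0.97 and Lama5 total RNA at 0.93. The cause was not tested. With at least 10 counts in every library, 39 named values could not be fitted.

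Signs turned for TE changes that were not called. With DESeq2 they were 0.00263 for Col4a1, 0.10 for Col9a2, 0.78 for Itgb8 and 0.0373 for Nid1, with edgeR 0.0632 for Col9a2 and 0.69 for Itgb8, and with GC correction -0.0162 for Itga5, 0.0914 for Itgb1, 0.061 for Itgb8 and -0.00245 for Nid2, beside -0.0355 for Hspg2 RPF. Over single libraries left out, TE changes ranged over -0.13 to 0.0451 for Col4a1, -0.22 to 0.29 for Col9a2, -0.0534 to 0.0938 for Itga5, -1.47 to 0.13 for Itgb3, -0.69 to 0.38 for Itgb8, -0.17 to 0.0498 for Itga3, -0.0478 to 0.13 for Lamb1, -0.0277 to 0.14 for Lamc1, -0.32 to 0.23 for Nid1, -0.00914 to 0.13 for Nid2, -0.0145 to 0.11 for Fn1 and -0.15 to 2.82 for Spon1. Depth limits members with at most 3 counts in every library of a group, whose level in that group is bounded and not measured. Intervals and limits cover counting error only.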

Other observations

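Levels per kb put the members in a different order in the 2 states. In ESC RPF the order was Sparc, Lamc1, Fn1, Nid2, Itgb1 and Nid1, from 1025 ± 77.01 CPM (SD, n = 3) down to 199 ± 11.6 CPM. Itgb1 at 203 ± 9.8 CPM and Nid1 at 199 ± 11.6 CPM lay within their spread of each other. In EpiLC RPF the order was Sparc, Itgb1, Col18a1, Lamc1, Lamb1 and Hspg2, from 569 ± 23.9 CPM down to 143 ± 12.8 CPM, and Lamb1 at 145 ± 1.602 CPM and Hspg2 lay within their spread of each other. Thbs1 came next at 124 ± 13.4 CPM, after 0.937 ± 1.12 CPM in ESC RPF. Promoter windows of members held the GC box in 55.3% of 76 windows and TATAAA in 7.89%, given as shares without a test.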
